A study of Mus musculus with 56 samples.

Results

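The Myc, Max and Mxd network was examined in mouse blood through 9 genes, Myc, Mycn, Max, Mxd1, Mxd3, Mxd4, Mxi1, Mnt and Mlx, taken by gene name from the 30199 genes named on a whole mouse genome array. These genes had 11 probes in all. The question was whether the network's transcripts differed between mice carrying the bone-seeking radioisotope strontium-90 (90Sr) and their controls, at each of 5 times. The arrays held blood RNA from 28 injected and 28 control mice, 1 array per mouse, with 4 mice per group at day 4 and 6 per group at each of days 7, 9, 25 and 30. All were C57BL/6 mice, received at about 10 to 12 weeks of age and kept in quarantine for 14 days. The injected mice were given 200 kBq of 90SrCl2 in 0.05 mL through the tail vein, and the control mice the saline vehicle. Whole blood was drawn by cardiac puncture into an RNA stabilizing solution, and globin transcripts were reduced before labeling.

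Myc is a transcription factor of the basic helix-loop-helix leucine zipper family that binds DNA only as a dimer with Max, and the Myc-Max dimer activates genes of ribosome production, metabolism and cell growth. Mxd proteins, Mxi1 and Mnt compete for Max, bind the same hexamer CACGTG, known as the E-box, and recruit the Sin3 corepressor with histone deacetylases. Mlx is a Max-like protein that pairs with some Mxd proteins, with Mnt and with the Mondo factors, which respond to glucose. In blood, Myc is high in cycling progenitors and activated lymphocytes, while Mxd1 is known for its rise as myeloid cells mature.

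The E-box to which these proteins bind was looked for in the members' own promoters, as it is the site that the network's dimers share. RefSeq promoter windows on GRCm38.p6, each 250 bases before to 50 after a transcription start, were on hand for 8 of the 9 members, Myc having none. The motif CACGTG, which reads the same on both strands, occurred in the windows of 4 of these 8, against 8.09% of the 27025 genes with a window. The 4 members were Max, Mlx, Mnt and Mxd4, and the windows of Mxd1, Mxd3, Mxi1 and Mycn held no match. A match describes the letters of the window and is not evidence of binding. For each of the 4 genes, 60 bases that hold the motif are given 5′ to 3′ on the gene's strand, with the E-box in capitals. For Mlx, Mnt and Mxd4 the motif lies in the middle of the printed stretch, which ends before the transcription start. For Max, whose E-box spans the start, the stretch ends with the motif.
Max, chr12:76962246-76962305, minus strand, E-box from 3 bases before the start: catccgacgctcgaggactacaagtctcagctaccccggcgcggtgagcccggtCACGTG
Mlx, chr11:101087223-101087282, plus strand, E-box from 40 bases before the start: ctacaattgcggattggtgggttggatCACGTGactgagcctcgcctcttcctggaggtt
Mnt, chr11:74830774-74830833, plus strand, E-box from 123 bases before the start: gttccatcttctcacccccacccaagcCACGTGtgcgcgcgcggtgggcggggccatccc
Mxd4, chr5:34187897-34187956, minus strand, E-box from 219 bases before the start: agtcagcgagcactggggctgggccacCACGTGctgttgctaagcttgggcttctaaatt

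Levels are given as log2 signal relative to the median of the non-control spots of the same array, and a change is the mean level of the injected mice less that of the controls of that day. Spots well above background numbered 17809 to 24698 on the control arrays (median 21049) and 14389 to 22524 on those of the injected mice (median 17863). The array median itself, on the log2 scale before scaling, changed by -0.66, -0.59, -0.94, -0.66 and -0.59 at the 5 days in order, so an unscaled signal that fell by less than this counts as a rise. Both day 4 groups lay on a slide of their own, and slide and group cannot be told apart at that day. At each later day 1 slide held 2 arrays of each group, and the other arrays lay on slides of 1 group. Injected replicates 2 to 5 of day 7 and 3 to 6 of day 30 lay on slides scanned on another day than all other arrays of those days. The part of the scan in the changes of days 7 and 30 was not tested. The values within the slide that held both groups, scanned on 1 day, are given for Myc, Mnt, Mxd1, Mxd4 and Mlx. The highest correlation between 2 arrays was 0.9924, and no array was a copy of another. In whole blood, fewer cells of a type and less RNA per cell cannot be told apart, and precision is limited by how many arrays each group had.

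Of the 9 members, 6 passed the detection filter, which drops a probe if at least 25% of the arrays flag it as uneven or as no brighter than background. They were Myc, Max, Mxd1, Mxd4, Mnt and Mlx. Mnt was lower in the injected mice at every day, and Myc was lower at 4 of the 5 days. Mlx was lower at every day, by less than Mnt, and Mxd4 was lower from day 7 on. Mxd1 was higher at day 30, a rise that was lost or much smaller under other processing, as given below. A gene was called when its unadjusted limma p was below 0.001 and it changed 2-fold or more, the criterion of the study's methods. By this rule 2, 2, 1, 1 and 2 of the 6 members were called at the 5 days in order. All were called lower apart from Mxd1 at day 30. Over all genes past the detection filter, 19.5%, 14.6%, 18.1%, 25.5% and 31.7% were called at those days, and with only 6 members these counts are not set apart from the array as a whole. At a Benjamini-Hochberg adjusted p below 0.05 from limma, 3, 5, 4, 4 and 6 members passed, against 53.9%, 57.6%, 42.6%, 64.1% and 64.1% of all genes. The 2 groups did not overlap for 3, 4, 3, 4 and 3 members, against 50.5%, 32.1%, 23.8%, 35.4% and 28.4% of all genes.

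**Figure D1:**
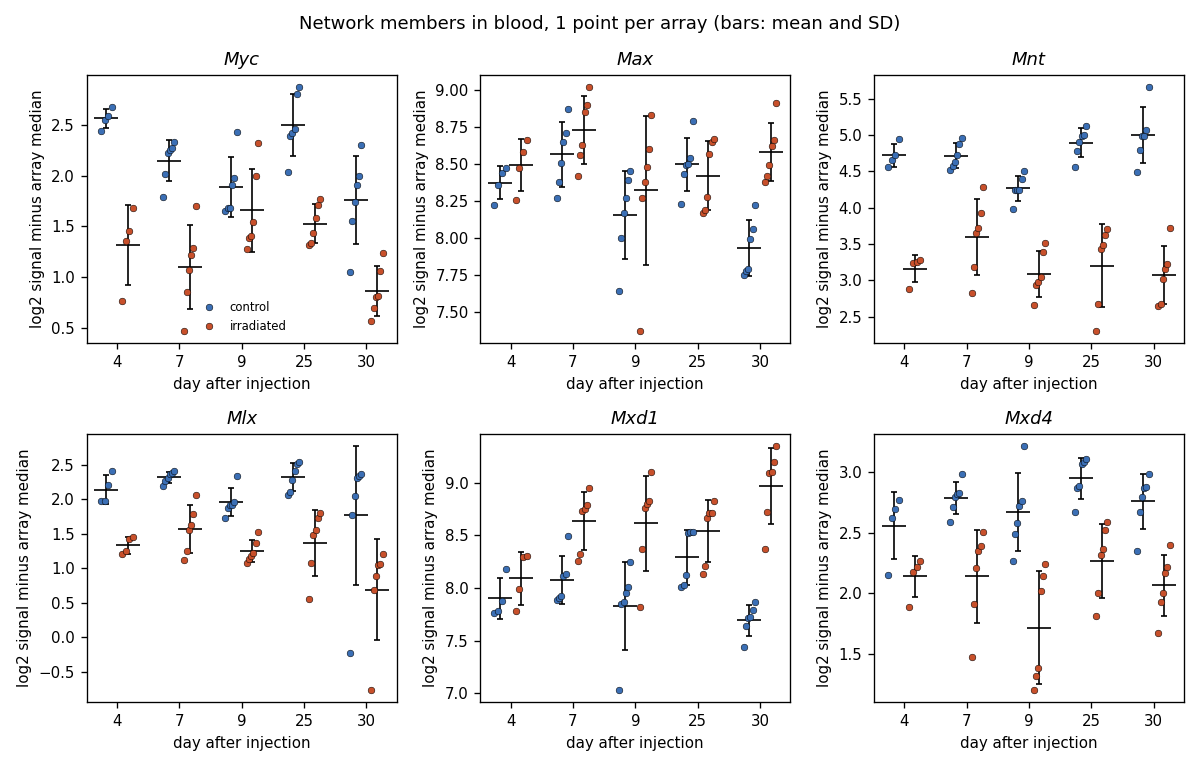
Level of the 6 detected members on every array, as log2 signal minus the array median, by day after injection, for control (blue) and 90Sr-injected mice (orange, irradiated), with the mean and SD of each group as bars. Mnt of the injected mice lies below every control at all 5 days, and Mxd1 of the injected mice lies above every control at day 30 under this scaling, while under quantile scaling its rise is 0.87 and with Edwards background correction 0.11.

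Myc, the activating member (probe at mm9 chr15:61821417-61821476), was 2.37-fold lower at day 4 and 2.06-fold lower at day 7. At day 4 the 4 control mice had levels of 2.55, 2.59, 2.67 and 2.44. The 4 injected mice had levels of 1.46, 1.68, 1.36 and 0.77, all below the lowest control. The change was -1.24 ± 0.20 (SE, limma adjusted p = 0.000688, n = 4 per group), and Myc was called. At day 7 the controls ran from 1.79 to 2.33 with a median of 2.24. The injected mice ran from 0.47 to 1.70 with a median of 1.15, again without overlap. The change there was -1.05 ± 0.19 (limma adjusted p = 0.000474, n = 6 per group), and Myc was called. At the days when it was called, 23.1% and 16.1% of all genes past both filters were called lower. At day 9 the controls ran from 1.65 to 2.43 (median 1.80) and the injected mice from 1.28 to 2.32 (median 1.48). These groups overlapped, and the difference of -0.23 ± 0.23 did not pass (limma adjusted p = 0.44, 95% interval -0.72 to 0.26). At day 25 the controls ran from 2.03 to 2.87 (median 2.44) and the injected mice from 1.32 to 1.77 (median 1.51), without overlap. The change of -0.97 ± 0.19 (limma adjusted p = 0.00054) lay just short of 2-fold and was not called. At day 30 controls from 1.05 to 2.30 (median 1.82) and injected mice from 0.57 to 1.24 (median 0.81) overlapped at the edges, with a change of -0.89 ± 0.23 (limma adjusted p = 0.00307).

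The day 7 call of Myc was lost without injected replicate 2, when the change fell just short of 2-fold, or replicate 6 (-0.92). Within the slide that held both groups, Myc differed by -1.29, -0.49, -0.90 and -0.75 at days 7, 9, 25 and 30. With slide as a fixed block, which leaves the change to these 2 arrays of each group, the day 7 call was lost. Under the 75th percentile and quantile scalings Myc was called at no day, with changes of -0.77 and -0.81 at day 4, and its day 9 value turned to 0.16 and 0.11. Mycn, the neuronal relative of Myc (mm9 chr12:12943193-12943252), was well above background on 0 of the 56 arrays and above background on 2, so no fold is given.

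Max, the shared dimer partner (mm9 chr12:78038272-78038331), was well above background on all 56 arrays and was called at no day. At day 4 the control levels were 8.44, 8.47, 8.36 and 8.22 and the injected levels 8.66, 8.58, 8.26 and 8.47, which overlapped. The differences at days 4, 7, 9 and 25 were 0.12, 0.16, 0.17 and -0.08, with limma adjusted p from 0.327 to 0.671 and 95% intervals that together ran from -0.40 to 0.68. At day 30 the controls ran from 7.75 to 8.22 with a median of 7.89. The injected mice ran from 8.38 to 8.91 with a median of 8.56, all above the highest control. That difference was 0.65 ± 0.16 (limma adjusted p = 0.00299, n = 6 per group), short of 2-fold. The day 30 controls had the lowest Max level of the 5 control groups, 7.93 ± 0.19 (SD), against 8.15 to 8.57 at the other days. The day 30 difference fell to 0.24 under quantile scaling and turned to -0.41 with Edwards background correction, so no direction is given for Max.

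Mnt, a repressor present in resting and cycling cells alike (mm9 chr11:74658915-74658974), was called lower at all 5 days, as were 1187 of the 18796 genes tested, or 6.32%. At day 4 the controls had levels of 4.65, 4.56, 4.94 and 4.73. The injected mice had levels of 3.28, 3.24, 3.25 and 2.88. The change of -1.56 ± 0.16 was a 2.95-fold fall (limma adjusted p = 0.000149). Control and injected mice did not overlap here or at any later day. At day 7 the controls ran from 4.52 to 4.96 (median 4.68) and the injected mice from 2.82 to 4.29 (median 3.68). At day 9 the ranges were 3.98 to 4.50 (median 4.25) and 2.66 to 3.52 (median 3.01). Mnt changed by -1.12 ± 0.22 at day 7 (limma adjusted p = 0.00069) and by -1.18 ± 0.20 at day 9 (limma adjusted p = 0.000322), the smallest of its changes. At day 25 the controls ran from 4.56 to 5.13 (median 4.95) and the injected mice from 2.30 to 3.71 (median 3.45). At day 30 the ranges were 4.49 to 5.66 (median 4.99) and 2.65 to 3.72 (median 3.08). The changes were -1.69 ± 0.25 (limma adjusted p = 0.00015) and -1.92 ± 0.25 (limma adjusted p = 4.93e-05), the latter 3.80-fold and the largest change of any member at any day. The backgrounds for genes past both filters called lower at days 9, 25 and 30 were 17.9%, 26.5% and 21.3%.

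The direction of Mnt held under every setting tried, but its calls did not. Its day 7 and day 9 changes were -0.77 and -0.79 with 75th percentile scaling and -0.79 and -0.83 with quantile scaling, below 2-fold and no longer called. The day 7 call was also lost without injected replicate 6 (-0.96). On the slides that held both groups, with 2 arrays of each, Mnt differed by -1.37, -1.36, -1.11 and -1.41 at days 7, 9, 25 and 30. With slide as a fixed block none of these had an unadjusted limma p below 0.001, and the call of Mnt was lost at all 4 days.

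Mxd1, the Mxd protein tied to myeloid maturation, has 2 probes here, at mm9 chr6:86599053-86599112 and chr6:86597190-86597249, and both were detected. With the first, brighter probe the controls of day 30 ran from 7.44 to 7.87 with a median of 7.71. The injected mice of that day ran from 8.37 to 9.35 with a median of 9.09, without overlap. The change of 1.28 ± 0.19 (2.42-fold, limma adjusted p = 0.000118, n = 6 per group) was called, as were 15.5% of all genes past the detection filter in that direction at day 30. At day 4 the controls had levels of 7.76, 7.78, 7.88 and 8.18, and the injected mice 8.30, 8.29, 7.99 and 7.78. These overlapped, with a difference of 0.19 (limma adjusted p = 0.349). The difference was 0.56 at day 7 (limma adjusted p = 0.00681) and 0.79 at day 9 (limma adjusted p = 0.0179), with overlapping groups at both days. At day 25 it was 0.25 (limma adjusted p = 0.225).

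The second Mxd1 probe gave smaller values, -0.02, 0.32, 0.64, -0.02 and 0.74 in order of day, and was called at no day. At day 30 its injected mice, from 5.85 to 6.52, again lay above all controls, from 4.81 to 5.79 (limma adjusted p = 0.0048). The mean of both probes rose by 1.01 at day 30 and was called. Within the slide that held both groups the first probe differed by 0.32, 0.83, -0.15 and 0.80 at days 7, 9, 25 and 30. With 75th percentile scaling the first probe was called at day 9 (1.18) and at day 30 (1.46), where all genes shifted up by a median of 0.31 at both days. The day 30 rise of the first probe was 0.87 under quantile scaling, 0.80 within the slide that held both groups, 0.68 with no scaling between arrays and 0.11 with Edwards background correction, none of them called. The rise of Mxd1 is therefore given as a rise relative to the array median.

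Mxd4, a repressor linked to cells that leave the cycle, also has 2 probes, which overlap on the genome (mm9 chr5:34519323-34519382 and chr5:34519276-34519335). The brighter one differed by -0.42, -0.65, -0.95, -0.68 and -0.69 on the log2 scale in order of day. At day 4 the controls had levels of 2.62, 2.70, 2.77 and 2.15 and the injected mice 2.27, 1.89, 2.18 and 2.22, an overlap through the control at 2.15 (limma adjusted p = 0.0595). Day 9 had the widest gap, with controls from 2.27 to 3.22 (median 2.65) and injected mice from 1.20 to 2.24 (median 1.70). The change of -0.95 ± 0.23 there (limma adjusted p = 0.00424) did not reach 2-fold, and 4 of the 6 injected mice were well above background. From day 7 on the limma adjusted p were between 0.00278 and 0.00486, and the groups did not overlap at days 7, 9 and 25. No day was called. Within the slide that held both groups Mxd4 differed by -1.21, -1.01, -0.54 and -0.52 at days 7, 9, 25 and 30. Mxd4 was called at all 5 days with no scaling between arrays (-1.07 to -1.89), at day 30 with Edwards correction (-1.16), at day 7 with slide as a fixed block (-1.21), and at day 9 without control replicate 6 (-1.03) or injected replicate 2 (-1.04) or 4 (-1.06). The sign turned at day 4 with 75th percentile (0.06) and quantile (0.04) scaling. From day 7 on the falls of Mxd4 were smaller under both, at -0.30, -0.56, -0.20 and -0.51 with the 75th percentile. With quantile scaling they were -0.31, -0.61, -0.20 and -0.52, and none of these was called. The unadjusted limma p was below 0.05 at days 9 and 30 under both and at day 7 with quantile scaling, but not otherwise. The dimmer probe was close to background, with 0 of 6 injected mice of day 9 well above it. Its changes of -0.52, -0.40, -0.94, -0.54 and -0.84 did not pass.

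Mxd3, known from cells in S phase (mm9 chr13:55427000-55427059), and Mxi1 (mm9 chr19:53450238-53450297) were not detected. Each was well above background on 1 array of 56, and above background on 18 and 21. Their levels, like those of Mycn, sat near the background of each array, where subtracting a lower array median gives a higher number, and no fold is given for them.

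Mlx (mm9 chr11:100952426-100952485) was lower at each day, with limma adjusted p of 0.00204, 0.00125, 0.00534, 0.00177 and 0.0352, and called at none. At day 4 the controls had levels of 1.97, 2.20, 2.41 and 1.97 and the injected mice 1.45, 1.21, 1.42 and 1.25. All injected mice lay below all controls at days 4, 7, 9 and 25, when the change of Mlx was -0.80, -0.75, -0.70 and -0.95 on the log2 scale. At day 30 the controls ran from -0.23 to 2.37 (median 2.17) and the injected mice from -0.76 to 1.20 (median 0.97). The day 30 change of -1.08 ± 0.43 rested on wide groups, and without control replicate 4, the mouse at -0.23, it was -1.47 and called. With no scaling between arrays Mlx was called at days 4 to 25. Mlx was dim, well above background in 4 of 6 injected mice at days 9, 25 and 30.

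**Figure D2:**
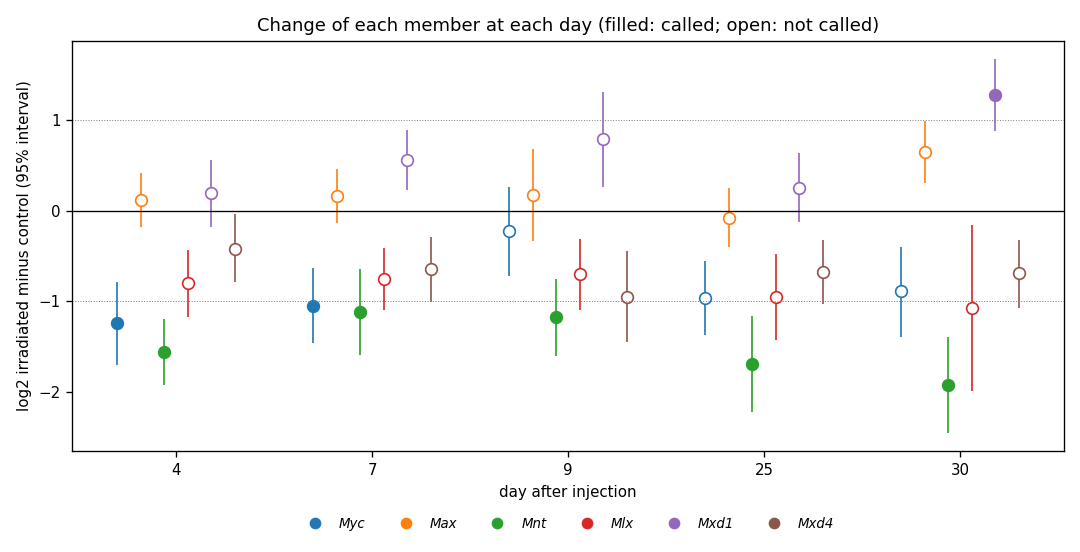
Change of each detected member at each day, as log2 injected (irradiated) minus control with its 95% interval from limma, filled where called and open where not, with dotted lines at a 2-fold change. Mnt is filled at all 5 days, Myc at days 4 and 7, and Mxd1 at day 30, while at day 9 the interval of Myc runs from -0.72 to 0.26; with Edwards background correction Mxd1 at day 30 is at 0.11 and Max at -0.41.

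The size of the change differed between days for Mxd1 (limma F test of the interaction of group and day, adjusted p = 0.00917) and for Myc (adjusted p = 0.0401), as it did for 22.9% of all genes. It did not pass for Max (adjusted p = 0.107), Mnt (0.115), Mxd4 (0.572) or Mlx (0.9). The Myc result was lost under a replicate block (adjusted p = 0.0912) and on leaving out any 1 of 9 single arrays, and neither result passed with slide as a random block. Which members passed also moved with the scaling. Mnt passed with the 75th percentile (adjusted p = 0.0158) and quantile scaling (0.00746), while Mxd1 did not (0.0539 and 0.0547), and Myc passed under both. The controls themselves differed between days for 4 of the 6 members, against 56.4% of all genes. Control Myc was highest at day 4 and lowest at day 30, a span of 0.80 on the log2 scale (limma adjusted p = 0.00128). The spans of Max, Mnt and Mxd1 were 0.63, 0.73 and 0.60 (limma adjusted p = 0.00374, 0.0229 and 0.0368). The Myc values of days 9 and 30 were thus read against control means of 1.89 and 1.76, compared with 2.56 at day 4.

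Within an array the difference between Myc and another member stays the same when a constant, such as the array median or the 75th percentile, is subtracted from all of its spots. Relative to Mxd1, Myc was lower in the injected mice at all 5 days, with shifts of -1.43, -1.61, -1.02, -1.22 and -2.17 on the log2 scale. The two-sided exact permutation tests gave p adjusted over 25 comparisons of 0.0476, 0.00773, 0.0216, 0.00773 and 0.00773, where the smallest raw p possible was 0.0286 at day 4 and 0.00216 later. Relative to Max, Myc shifted by -1.37, -1.21, -0.89 and -1.54 at days 4, 7, 25 and 30 (exact adjusted p = 0.0476, 0.012, 0.00773 and 0.00773). At day 9 the difference of -0.40 did not pass (exact adjusted p = 0.201). Relative to Mnt the sign was the opposite. Myc less Mnt was higher in the injected mice by 0.95, 0.72 and 1.03 at days 9, 25 and 30 (exact adjusted p = 0.00773, 0.0316 and 0.00773), and by 0.32 and 0.07 at days 4 and 7, which did not pass. In all, 15 of the 25 comparisons passed, 10 of them with Myc the lower. With Edwards background correction 16 passed, and Myc less Mxd1 was again lower at all 5 days, with shifts of -1.08, -0.96, -0.60, -0.64 and -1.12 (exact adjusted p from 0.00902 to 0.0473). Quantile scaling, which shifts bright and dim spots by different amounts, does change these differences, and 11 of the 25 passed under it. Myc less Mxd1 then shifted by -0.97, -1.29, -0.49, -0.86 and -1.65, which passed at days 7, 25 and 30 (exact adjusted p = 0.00773 at each) but not at days 4 and 9 (0.051 and 0.141). Myc less Mnt was again higher at days 9, 25 and 30, by 0.94, 0.68 and 1.09 (exact adjusted p = 0.00773, 0.0492 and 0.00773).

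**Figure D3:**
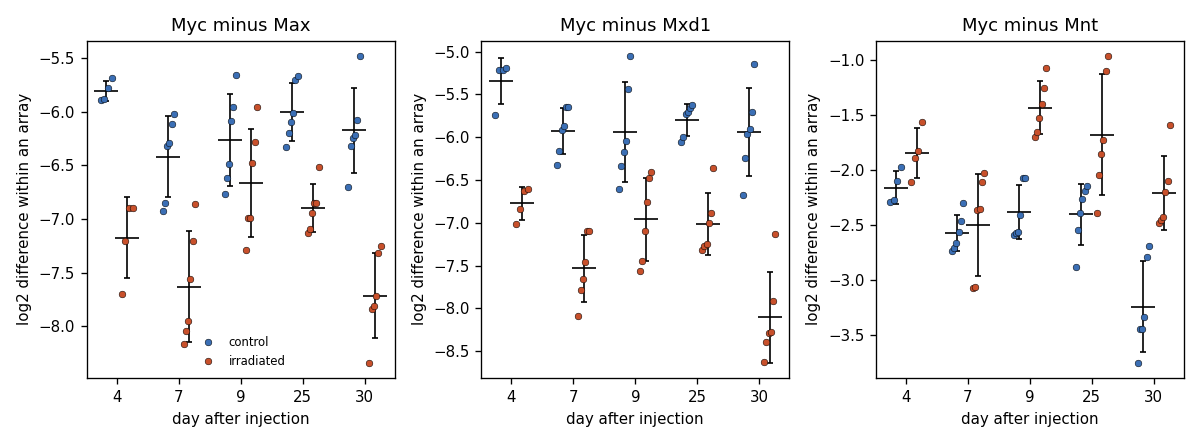
Difference of the Myc level and the level of Max, Mxd1 or Mnt on the same array, on the log2 scale, by day, for control (blue) and injected mice (orange, irradiated), with mean and SD as bars. Only the shift between the 2 colors has a meaning, as different probes have different brightness; Myc less Mxd1 shifts by -1.02 to -2.17 (-0.49 to -1.65 under quantile scaling), and Myc less Mnt shifts up by 0.95 at day 9 and 1.03 at day 30.

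The values of all genes moved with the scaling too. The median change of the 18796 genes was between -0.10 and 0.12 with the array median, and between 0.31 and 0.47 with the 75th percentile. Read against that shift, the 75th percentile values of Myc lay between -0.77 and 0.16 and those of Mnt between -1.74 and -0.77. With no scaling at all, Mnt changed by -1.71 to -2.52 and Myc by -1.17 to -1.90, while Max lay between -0.77 and 0.06 and Mxd1 between -0.47 and 0.68.

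**Figure D4:**
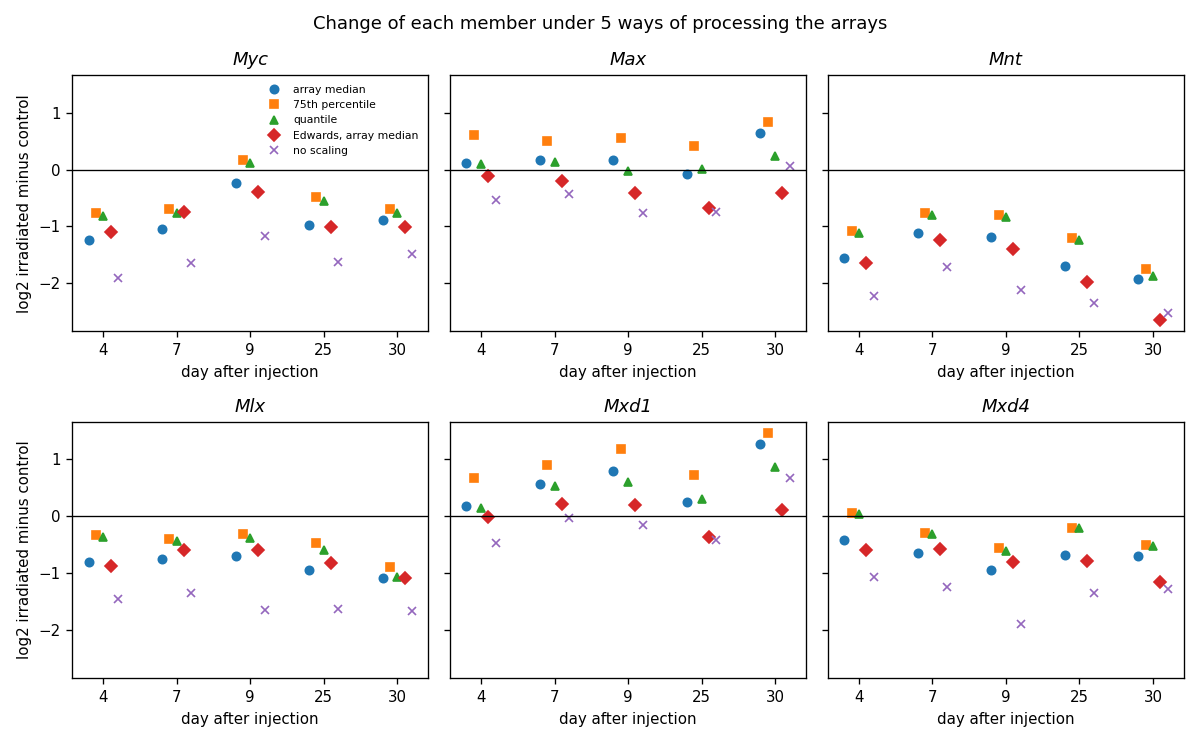
Change of each detected member by day, as log2 injected minus control, under 5 ways of processing: the array median, the 75th percentile, quantile normalization, Edwards background correction with the array median, and no scaling. The points of Mnt and Mlx stay below 0 under all 5, and those of Max and Mxd1 lie on both sides of 0 at 5 and 4 of the 5 days.

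Other genes of the pathway were read from lists of its parts, fitted on all genes past the detection filter. All values of these lists are relative to the array median, and how they move under other processing was not tested. Among 14 measured corepressors that Mxd proteins and Mnt recruit, 8, 4, 5, 6 and 6 were called lower at the 5 days, against 17.4%, 12.1%, 13.7%, 19.8% and 16.1% of all genes. Called higher were 0, 0, 1, 0 and 1, against 2.14%, 2.59%, 4.42%, 5.69% and 15.5% of all genes. Values were negative for 11, 11, 10, 11 and 9 of the 14. Their median changes lay between -1.15 at day 4 and -0.73 at day 9, beside medians of all genes between -0.10 and 0.12. Sin3a, a scaffold of the Sin3 complex, was called lower at all 5 days, with changes of -1.99, -1.43, -1.47, -1.87 and -2.08. Sin3b, its counterpart, went the other way, with changes between 0.13 and 0.64, and was called at no day. Arid4b, a Sin3 complex subunit, and Hdac1, a histone deacetylase, changed by -1.39 and -1.27 on average over the days and were each called at 4 of 5.

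Myc cofactors, proteins that Myc recruits to chromatin, showed 6, 4, 5, 6 and 4 of 14 called lower, with medians from -0.71 to -1.05. Of all genes 17.4%, 12.1%, 13.7%, 19.8% and 16.1% were called lower. At day 30, 1 cofactor was called higher, as were 15.5% of all genes. Smarcb1, a core subunit of the SWI/SNF remodeler, changed by -1.51, -1.31, -1.55, -1.59 and -1.62. Wdr5, a subunit of histone methyltransferase complexes, changed by -1.75, -1.05, -1.33, -1.52 and -1.37, and both were called lower at all 5 days. Ruvbl1, an ATPase of chromatin remodelers, was called at 4 days with a mean change of -1.17. Genes of Myc turnover had 4, 2, 2, 6 and 4 of 15 called lower, against the same shares of all genes, so the 2 of 15 at days 7 and 9 lie near the background. Of these 15, 1 was called higher, also at day 30. Mycbp2, a ubiquitin ligase first described as a Myc binding protein, was called at all 5 days with a mean change of -1.48. Csnk2a1, a catalytic subunit of casein kinase 2, was called at 3 days.

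Of 48 measured Myc target genes, 19, 12, 13, 24 and 21 were called lower, against 17.4%, 12.1%, 13.7%, 19.8% and 16.1% of all genes. In the other direction 0, 0, 0, 1 and 2 were called, against 2.14%, 2.59%, 4.42%, 5.69% and 15.5% of all genes. The median changes were -0.95, -0.84, -0.79, -1.06 and -0.99. Negative values were held by 41, 42, 45, 41 and 39 of the 48 targets, against 50.4%, 50.1%, 54.1%, 53.2% and 46.1% of all genes. Nop2, a nucleolar RNA methyltransferase, was called lower at all 5 days, with changes of -1.65, -1.22, -1.26, -1.69 and -1.73. Polr2h, a subunit shared by the RNA polymerases, and Polr1b, a subunit of RNA polymerase I, were called at 4 days each, with mean changes of -1.61 and -1.37. The E-box CACGTG was present in the promoter windows of 12 of 43 targets with a window, or 27.9%, as against 8.09% of all genes. It was present for 3 of 12 Myc turnover genes (25.0%), 1 of 12 corepressors (8.33%) and 1 of 14 cofactors (7.14%). As the targets were listed for their link to Myc, whose dimer binds this motif, their share is a description and no test. Other members of the wider network gave 0 of 5 called lower at any day and 1 called higher, at day 30, when 15.5% of all genes were called higher.

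**Figure D5:**
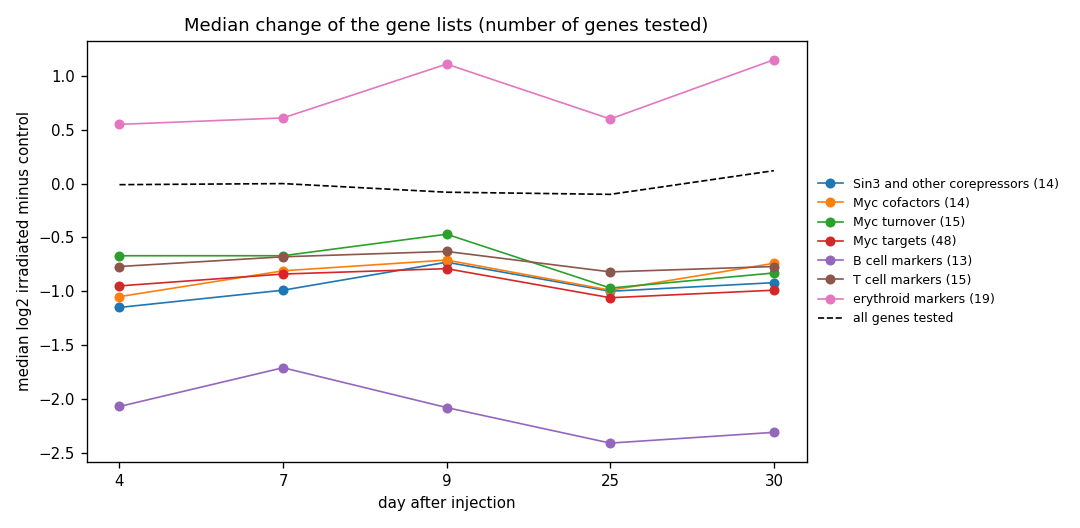
Median log2 change, injected minus control, of the genes of each list at each day under array median scaling, with the number of genes tested in parentheses. The median of all genes is a dashed line. The 4 Myc lists lie between -0.47 and -1.15, B cell markers between -1.71 and -2.41, and erythroid markers between 0.55 and 1.15.

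Cell type markers moved in the same arrays. Their values too are relative to the array median alone, and how these calls move under other processing was not tested. Blood was well represented, with 13 of 14 B cell, 15 of 15 T cell, 9 of 9 monocyte, 14 of 14 neutrophil and 19 of 19 erythroid markers on the array detected. Beside the falls of Mnt, Myc, Mlx and Mxd4, 11, 11, 10, 11 and 11 of the 13 B cell markers were called lower. Of all genes 17.4%, 12.1%, 13.7%, 19.8% and 16.1% were called lower. The B cell markers had medians of -2.07, -1.71, -2.08, -2.41 and -2.31. Their summed level, on the log2 scale relative to the array median, ran from 9.69 to 10.83 in the controls and from 7.26 to 9.52 in the injected mice, without overlap. T cell markers were called lower for 3, 1, 1, 3 and 3 of 15, near or below the shares of all genes called lower, with medians from -0.63 to -0.82. Their mean summed level was 10.48, 10.65, 10.41, 10.13 and 10.60 in the controls. In the injected mice it was 10.19, 10.32, 9.47, 9.55 and 10.63, so it was not lower at day 30. Monocyte markers were called lower for 5, 4, 4, 5 and 3 of 9, with medians from -0.91 to -1.43. Their mean summed level was 9.47, 9.71, 9.36, 9.68 and 9.78 in the controls. In the injected mice it was 9.30, 9.97, 9.16, 9.47 and 9.63, so it was higher at day 7. Neutrophil markers were called lower for 2, 1, 0, 2 and 0 of 14, below the shares of all genes at each day, with medians from -0.16 to -0.72. Their mean summed level was 12.86, 12.42, 12.37, 12.49 and 12.54 in the controls. In the injected mice it was 12.29, 12.35, 12.20, 12.11 and 12.68, so it was not lower at day 30. Beside the values of Mxd1, erythroid markers were called higher for 0, 1, 10, 0 and 11 of 19, and proliferation genes for 0, 1, 5, 1 and 5 of 9, against 2.14%, 2.59%, 4.42%, 5.69% and 15.5% of all genes. The medians of the erythroid markers were 0.55, 0.61, 1.11, 0.60 and 1.15, highest at days 9 and 30. At day 30 their summed level ran from 16.61 to 17.51 in the controls and from 17.71 to 18.19 in the injected mice. The part of these cell types in the changes of the network members was not tested.

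Members were also compared with each other across the 56 arrays. Mnt and Mxd4 had a Pearson correlation of 0.82, Mlx and Myc 0.74, Mlx and Mnt 0.73, and Mnt and Myc 0.72, while Max and Mxd1 had 0.64. Within groups, after the group means were taken away, the value was 0.57 for Mnt and Mxd4, 0.49 for Mnt and Myc, and 0.63 for Max and Mxd1. Mnt and Mxd1 had -0.59 over all arrays and -0.08 within groups. These arrays share scaling and treatment, and the correlations are descriptions. The genes most like Mnt were Ncln, Rpp25l and Trub2, each with 0.98 over 56 arrays. Those most like Myc were Vps41 (0.90), Sp1 (0.90) and Ets1 (0.89), and those most like Mlx were Chmp2b (0.89), Nup35 (0.89) and Ppp5c (0.88). Max was nearest to Odc1 (0.93, and 0.91 within groups), which encodes ornithine decarboxylase and is on the list of Myc targets, followed by Cyb5 and BC098458 (0.92 each). Mxd1 was nearest to Usp14 (0.95), Ube2f (0.94) and Ptbp3 (0.93), and Mxd4 to Osbpl11, Hmha1 and Pagr1a (0.91 each).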

How the data were processed

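Blood RNA of 56 mice was measured on one-color Agilent arrays. The authors deposited each spot's processed signal, a background-corrected intensity on a linear scale that is not scaled between arrays, with flags for non-uniform, above-background and well-above-background spots as other columns. The submitters' processing notes name Agilent Feature Extraction 10.7, and the file headers version 11.5.1.1. The authors also deposited a processed table of log2 values, used as an alternative.

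Control spots were left out, log2 signals of repeated spots were averaged, and the median of the 43020 non-control spots was subtracted on every array. Of 39429 probes, 23317 (18796 genes) passed the detection filter. Of these, 17095 (14580 genes) also differed from their median by at least 1.5-fold on at least 20% of the arrays. The brightest probe stood for a gene. Each day was fitted by itself with limma 3.58.1 in R 4.3.3 (lmFit, eBayes), and p were adjusted by Benjamini-Hochberg over all genes tested. Myc, Mnt and Mlx are from the fit past both filters. Max, Mxd1 and Mxd4, whose brightest probes did not pass the variation filter, are from the fit past detection. A second probe is from a fit of all detected probes. Within-array differences were compared by two-sided exact permutation tests. The Edwards correction is limma's background correction of the mean and local background signals with no offset. The fits were tested on simulated data.

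The members, lists and tests were chosen with earlier results of these data known. Named were all members and their probes. Up to 3 genes of each pathway list were named, with the largest mean change among those called at 3 or more days, and the 3 genes most correlated with each member. Sin3b was named besides, as the counterpart of Sin3a. A gene that this rule names is not reported here. Gene names and mm9 positions are those of the array files. The alternatives were other scalings and background corrections, filters, the mean of probes, the authors' values, the slide or the replicate number as a block, all 10 groups in 1 fit, and leaving out arrays singly.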

Additional observations from a re-analysis of the deposited data

Results flagged for a closer look

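Of 80 groups of 4 to 6 arrays that were examined, 6 held 1 array far from the rest, where chance gives about 1 in 20. For Mlx these were control replicate 4 of day 30, at -0.23 on the log2 scale relative to the array median, and injected replicate 6 of day 30, at -0.76. For Mnt it was injected replicate 4 of day 4, at 2.88. For Mxd1 it was control replicate 6 of day 9, at 7.03 with the brighter probe. With the second Mxd1 probe, control replicate 4 of day 4 stood at 6.16 and injected replicate 1 of day 9 at 5.0. The change differed between days for Mxd1 (limma F test, adjusted p = 0.00917) and for Myc (adjusted p = 0.0401).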

How the results depend on the processing

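Of 393 values of the members' changes under alternatives other than leaving out an array, 322 kept their direction and call. The filters, the mean of probes, slide as a random block and a replicate block changed no call, and 1 fit of all 10 groups and the authors' values each changed 1. Correlations of same-numbered mice ran from -0.28 to 0.33, and 8 of 28 were over 0.1. All were positive at day 4 (0.08 to 0.31) and at day 30 (0.01 to 0.33). Replicate numbers were not taken as pairs in the main fits, and with the replicate block 1 member's change differed between days. Slide could be no block at day 4. In order of day, members called numbered 2, 2, 1, 1 and 2. With the 75th percentile they were 1 at day 4 and 0 at day 7, and the 1 at day 9 was Mxd1 in place of Mnt; with quantile scaling 1, 0 and 0 at days 4, 7 and 9 and 1 at day 30; with normexp 0 at each day; with slide as a fixed block 1 at day 7, Mxd4, with Myc and Mnt both lost, and 0 at days 9, 25 and 30. Leaving out 1 array gave 2 to 2, 0 to 2, 1 to 2, 1 to 3 and 2 to 4 called. Members whose change differed between days were 2, Myc and Mxd1. They were Myc and Mnt with the 75th percentile and quantile scaling, but 0 passed with normexp or slide as a random block, and 1 to 3 with an array left out. No scaling, Edwards correction and quantile scaling of the within-array differences were added after the data were seen. With no scaling 4, 4, 3 and 4 were called at days 4 to 25, and with Edwards correction 1 at day 7 and 2 at day 25. At day 30 both gave 3, Mnt, Myc and Mxd4, with Mxd1 lost. Normexp was no working correction here, since on 21 of 56 arrays (13 control) the corrected median exceeded the uncorrected, and 2 of 25 within-array comparisons passed in place of 15. With quantile scaling 11 did.

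Signs turned as follows. With the 75th percentile Mxd4 at day 4 was 0.06, Myc at day 9 0.16 and Max at day 25 0.41. With quantile scaling these were 0.04, 0.11 and 0.01, and Max at day 9 -0.03, with Myc less Max 0.14 at day 9 and Myc less Mlx 0.04 at day 25. With normexp Max was -1.51, -0.40 and 0.98 at days 4, 7 and 25 and Mxd1 -1.39 at day 4, and Myc less Max and less Mxd1 were 0.86 and 0.74 at day 4, less Mlx 0.01 at day 25 and less Mxd4 0.03 at day 30. With the slide block Max was -0.03 and -0.09 at days 7 and 9 and Mxd1 -0.15 at day 25. With no scaling Max was -0.54, -0.43 and -0.77 at days 4, 7 and 9, and Mxd1 -0.47, -0.03, -0.15 and -0.41 at days 4 to 25. With Edwards correction Max was -0.12, -0.20, -0.41 and -0.41 at days 4, 7, 9 and 30, Mxd1 -0.02 and -0.37 at days 4 and 25, Myc less Max 0.01 at day 9 and Myc less Mxd4 0.15 at day 30. The cause was not tested.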
